A study of Mus musculus with 31 samples.

Results

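Common myeloid progenitors (CMP) were compared with MPP3, the myeloid-biased multipotent progenitors, by their transcript levels on whole-transcript gene arrays. The comparison takes the 3 arrays titled as common myeloid progenitors and the 3 titled as multipotent progenitor 3, which are 6 of the 31 arrays of the series. The series holds 9 populations, from long-term stem cells to granulocytes, sorted from bone marrow of wild-type C57BL/6 mice. Per the labels, 20000 cells were sorted for each sample, the RNA was amplified, and replicates are biological. The labels give no age, treatment, animal or pool of animals for a sample, so p-values measure the spread between these samples.

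MPP3 cells were sorted as positive for cKit, Sca1 and CD48 and negative for lineage antigens, Flk2 and CD150. CMP cells were sorted as positive for cKit and CD34 and negative for lineage antigens and the Fc gamma receptor, and the gate given for them names no Sca1. MPP4 cells (5 arrays), positive for cKit, Sca1 and Flk2 and lacking lineage antigens, serve here as a link between groups of arrays. In the usual scheme of blood formation, multipotent progenitors still hold stem cell traits and can give several lineages, and MPP3 yields mainly myeloid cells. CMP lies further down, past the loss of Sca1, and can give megakaryocytes and red cells as well as granulocytes and monocytes. Genes that mark these paths, such as Pf4 for megakaryocytes, Klf1 for red cells and Irf8 for monocytes, are known to appear at low levels in such progenitors before the lineages part.

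The deposited log2 arrays differ in overall level. Array medians were 6.90 to 6.94 for the 3 CMP arrays, 7.80 and 7.81 for MPP3 1 and 2, and 6.996 for MPP3 3. Values that are identical between arrays split the 31 arrays into 5 sets, which the labels do not name. CMP 1 to 3 share a set with MPP4 1 to 3, MPP3 3 shares one with MPP4 4 and 5, and MPP3 1 and 2 lie with ST-HSC and MPP2. No set holds both CMP and MPP3, so within the 6 arrays set and population cannot be told apart. All values below are log2 levels after quantile normalization over the 31 arrays, and the main test is limma's moderated test of CMP minus MPP3 over 19938 genes at an adjusted p under 0.05. A second, set-adjusted fit adds the set as a block. It equals CMP minus MPP4 within one set plus MPP4 minus MPP3 3 within another, so MPP3 1 and 2 carry no weight in its change. A gene is said here to have risen or fallen in CMP only where both fits called it in that direction.

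MPP3 3 stands apart from the other MPP3 arrays. Across genes it correlated at 0.965 and 0.966 with MPP3 1 and 2, which correlated at 0.991 with each other, and the CMP arrays correlated at 0.990 to 0.992. It differed by over 1 log2 from the mean of MPP3 1 and 2 at 535 genes, against 58 genes between MPP3 1 and 2. Its sex-linked transcripts also differed, with Xist at 11.84 against 5.55 and 5.56, and Eif2s3y at 4.17 against 9.16 and 8.97. In CMP, Xist was at 6.03, 11.14 and 9.56 and Eif2s3y at 8.80, 7.71 and 9.06, so CMP 2 and 3 had both transcripts, unlike MPP3 3.

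The genes of the sort markers were read as a check of the labels. CMP and MPP3 had Kit at 10.71 ± 0.11 and 11.14 ± 0.04 (mean ± SD, n = 3 each) and Cd34 at 11.69 ± 0.04 and 11.51 ± 0.07. Fcgr3 was at 7.40 ± 0.32 in CMP and 7.51 ± 0.17 in MPP3, and Cd48 at 10.49 ± 0.19 and 10.44 ± 0.14. Flt3, which encodes Flk2, was at 9.70 ± 0.15 in CMP and 9.72 ± 0.13 in MPP3, although MPP3 was gated as Flk2 negative. With arrays centred on their medians Kit and Flt3 turn to higher in CMP, Kit by 0.20 (adjusted p = 0.422) and Flt3 by 0.52 (adjusted p = 0.0355), and Cd34 is called higher, by 0.82 (adjusted p = 0.00814). Slamf1, which encodes CD150, was at 6.89, 7.39 and 7.46 in CMP and 5.74, 5.35 and 5.70 in MPP3. CD150 was part of the gate of MPP3, so this difference is given as a description. MPP4 and GMP, the granulocyte-macrophage progenitors, whose gates name no CD150, had 5.47 ± 0.23 (n = 5) and 5.12 ± 0.30 (n = 4). The Sca1 gene was not analysed here.

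Of the 5 genes below, Aqp1, Icam4 and Klf1 are the red cell genes that rose in CMP and whose promoter was at hand, and Pf4 and Jchain have the largest rise and the largest fall. Each sequence runs from 250 bases before to 50 bases into the gene, 5′ to 3′ on the gene's strand (RefSeq, GRCm38.p6). Capitals mark AGATAA, a motif that GATA factors bind, and CACCC, a motif that KLF1 binds, on either strand. These motifs share no letters in the matches shown.
Aqp1, chr6:55336049-55336348, plus strand: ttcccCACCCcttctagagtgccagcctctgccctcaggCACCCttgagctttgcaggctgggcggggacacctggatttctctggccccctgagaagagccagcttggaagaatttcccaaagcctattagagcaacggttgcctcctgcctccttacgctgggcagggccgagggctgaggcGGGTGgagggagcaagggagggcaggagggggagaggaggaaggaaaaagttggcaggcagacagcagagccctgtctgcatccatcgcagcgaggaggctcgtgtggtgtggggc
Icam4, chr9:21029182-21029481, plus strand: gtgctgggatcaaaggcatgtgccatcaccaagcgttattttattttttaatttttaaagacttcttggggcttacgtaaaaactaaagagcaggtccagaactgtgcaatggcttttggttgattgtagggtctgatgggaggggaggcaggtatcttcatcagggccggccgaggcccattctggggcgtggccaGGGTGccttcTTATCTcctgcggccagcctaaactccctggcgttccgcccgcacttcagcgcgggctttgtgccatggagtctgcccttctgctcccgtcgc
Klf1, chr8:84901732-84902031, plus strand: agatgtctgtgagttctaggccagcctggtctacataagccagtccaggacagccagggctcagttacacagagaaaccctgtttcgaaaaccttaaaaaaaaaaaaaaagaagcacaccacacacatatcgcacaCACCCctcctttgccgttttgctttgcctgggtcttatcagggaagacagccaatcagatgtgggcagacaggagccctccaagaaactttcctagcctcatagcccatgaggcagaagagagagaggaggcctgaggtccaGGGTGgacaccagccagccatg
Pf4, chr5:90772185-90772484, plus strand: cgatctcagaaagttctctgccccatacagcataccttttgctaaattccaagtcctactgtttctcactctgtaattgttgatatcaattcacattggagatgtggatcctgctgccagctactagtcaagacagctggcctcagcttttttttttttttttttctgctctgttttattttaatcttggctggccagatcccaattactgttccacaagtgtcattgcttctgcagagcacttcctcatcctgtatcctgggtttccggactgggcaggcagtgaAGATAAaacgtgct
Jchain, chr5:88527848-88528147, minus strand: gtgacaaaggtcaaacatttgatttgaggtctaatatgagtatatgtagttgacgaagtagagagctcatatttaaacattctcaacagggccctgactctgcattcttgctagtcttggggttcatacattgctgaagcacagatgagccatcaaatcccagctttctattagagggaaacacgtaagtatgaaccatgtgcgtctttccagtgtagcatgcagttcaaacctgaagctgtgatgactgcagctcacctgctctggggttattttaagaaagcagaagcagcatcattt
AGATAA was found in the Icam4 and Pf4 windows, and CACCC in the Aqp1, Icam4 and Klf1 windows, with 3 matches in Aqp1. Of 32851 promoters of this length in the table, 11.2% hold AGATAA and 57.5% hold CACCC. Only the exact letters of these motifs were searched, so other sequences that the same factors bind are left unmarked. The matches are given as a description of these windows.

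Both fits together called 134 genes higher (0.672% of genes tested) and 120 lower (0.602%) in CMP. The quantile-normalized fit alone called 1434 genes higher (7.19%) and 839 lower (4.21%), and the set-adjusted fit 247 higher (1.24%) and 303 lower (1.52%). No gene was called in opposite directions by them. Counts of called list members below are to be read beside these shares. The split depends on the scale: calls of higher genes made up 63.1% of all calls after quantile normalization, 83.4% with arrays centred on their medians, 2.00% in the values as deposited and 44.9% in the set-adjusted fit. The median change of all genes was 0.03 after quantile normalization, −0.02 in the set-adjusted fit and −0.51 in the deposited values. Over all genes, 3978 (20%) had all 3 CMP values above all 3 MPP3 values and 2836 (14.2%) had all below.

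Among the genes that changed, 34 rose and 18 fell by over 1 log2. MPP3 3 had the highest of the 6 values at 83.3% of the genes that fell, against 34.9% of all genes, and the lowest at 70.1% of those that rose, against 22.4% of all genes. Without MPP3 3 the set-adjusted fit could not be fitted, and the quantile-normalized fit still called 92 of the 134 rises and 54 of the 120 falls. Removing CMP 2, CMP 3 or MPP4 2 took the number of genes called in both fits from 254 to 133, 117 and 152. Some symbols were passed over in naming genes, being those of predicted, unnamed, microRNA or olfactory receptor genes. They made up 35 of the genes that fell and 2 of those that rose. The share of such symbols over all genes was not counted.

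**Figure D1:**
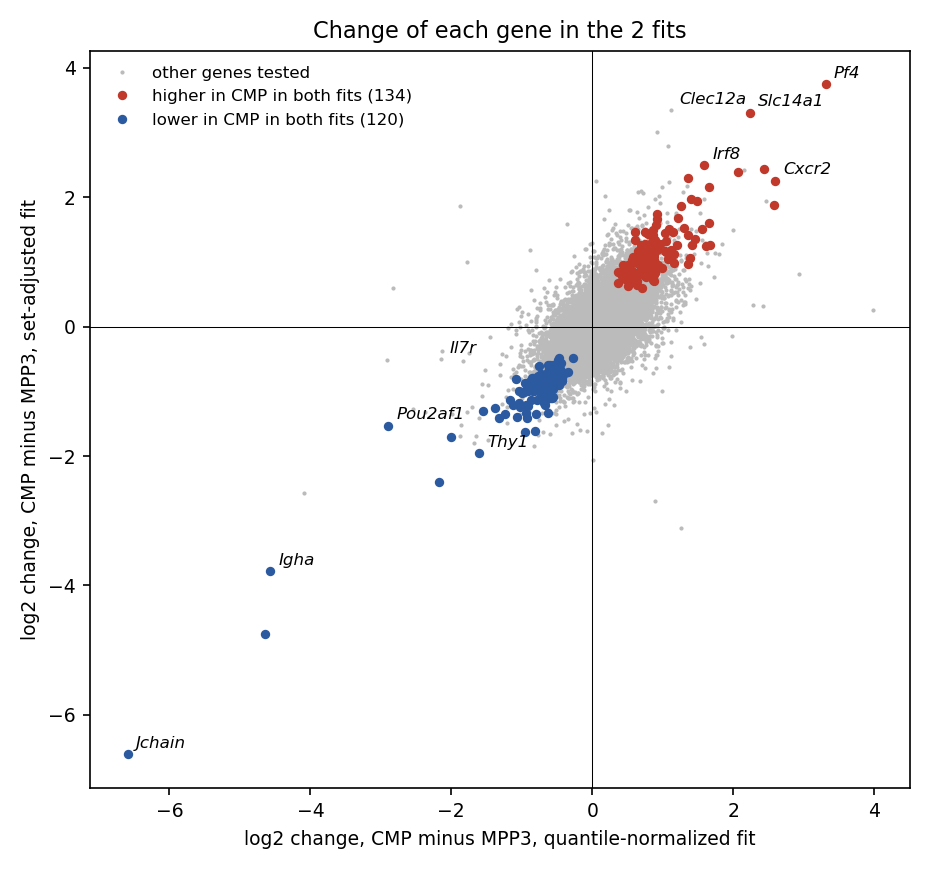
Change of each of 19938 genes from MPP3 to CMP (log2) in the quantile-normalized fit (x axis) and the set-adjusted fit (y axis). Red points are the 134 genes higher and blue points the 120 genes lower in CMP in both fits. Pf4 lies farthest up on both axes among the red points and Jchain farthest down among the blue ones, while Il7r lies left of 0 on the x axis at a set-adjusted change of −0.50.

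Pf4 had the largest rise. Pf4, which encodes the platelet chemokine platelet factor 4, was at 10.87, 11.01 and 11.02 in CMP and at 8.27, 8.18 and 6.52 in MPP3. The groups lie far apart, and MPP3 3 had the lowest value. Pf4 rose by 3.31 ± 0.53 (log2 change ± SE, adjusted p = 0.000335), a 9.93-fold difference, and by 3.75 ± 0.86 in the set-adjusted fit (adjusted p = 0.022). Without MPP4 5 the set-adjusted p of Pf4 was 0.0542. Within the set that CMP shares with MPP4, Pf4 was 3.82 higher in CMP than in MPP4 1 to 3 (adjusted p = 0.000128). That comparison within a set called 1089 genes higher (5.46%) and 719 lower (3.61%) in CMP.

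Of 19 measured genes of the megakaryocyte and platelet list, Pf4 alone rose and none fell. The median change of the list was 0.36, against 0.03 over all genes, and 94.7% of members lay above 0, against 53.8% of all genes. Only the quantile-normalized fit called Itga2b, Gp5, Plek and Rab27b, and Plek was at 0.82 there and 1.43 with arrays centred on their medians. Itga2b, the platelet integrin alpha IIb, was at 9.09, 9.23 and 9.16 in CMP and 8.17, 8.34 and 8.31 in MPP3, without overlap. Its change was 0.89 ± 0.13 (adjusted p = 0.000119), and 0.83 ± 0.23 in the set-adjusted fit (adjusted p = 0.0506). Gp5, a subunit of the platelet receptor for von Willebrand factor, had a change of 1.09 (adjusted p = 0.0118, set-adjusted 0.121). Vwf itself differed by 0.35 ± 0.17 (adjusted p = 0.177).

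Cavin2, a coat protein of caveolae, was at 8.10, 8.58 and 8.40 in CMP against 5.79, 6.15 and 5.82 in MPP3. All CMP values lay over 1 log2 above all MPP3 values. Cavin2 rose by 2.44 ± 0.28 (adjusted p = 4.75e-06, set-adjusted p = 0.00409). Mfsd2b, the sphingosine-1-phosphate exporter of red cells and platelets, was at 9.02, 9.03 and 9.23 against 7.63, 7.81 and 7.59 and rose by 1.42 ± 0.14 (adjusted p = 4.32e-07, set-adjusted p = 0.00584). Each of these calls held when any one of 10 CMP, MPP3 and MPP4 arrays was left out of both fits, MPP3 3 not being among them.

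**Figure D2:**
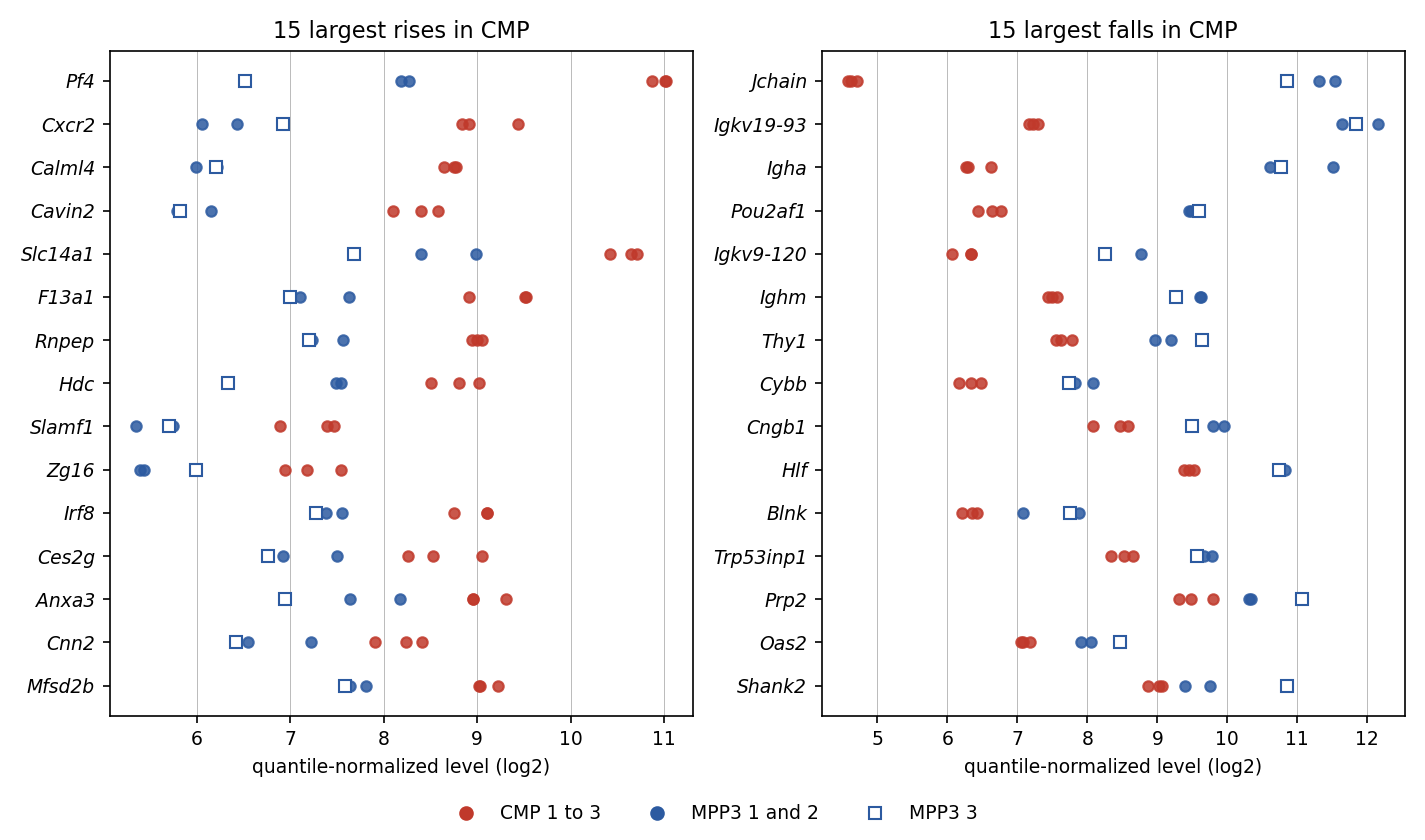
Levels (x axis, log2 after quantile normalization) of the 15 genes with the largest rise (left) and the 15 with the largest fall (right) in CMP. Red points are the 3 CMP arrays, blue points MPP3 1 and 2 and open squares MPP3 3. The genes were picked among those without overlap between the groups. In Shank2 and Prp2 the square lies well to the right of the other MPP3 points.

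Some red cell genes rose, while most of the red cell lists were not called. Slc14a1, the urea transporter of the red cell membrane, was at 10.42, 10.71 and 10.65 in CMP and at 8.40, 8.99 and 7.68 in MPP3. Among the MPP3 values that of MPP3 3 was the lowest. Slc14a1 rose by 2.24 ± 0.22 (adjusted p = 4.32e-07), and by 3.31 ± 0.28 in the set-adjusted fit (adjusted p = 4.08e-07). Aqp1, the water channel of red cells, was at 8.74, 9.38 and 9.29 against 7.78, 7.83 and 7.88. It rose by 1.31 ± 0.15 (adjusted p = 3.66e-06, set-adjusted p = 0.00333). Both calls held whichever of the 10 arrays was left out.

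Icam4, an adhesion molecule of red cell precursors, was at 8.71, 8.78 and 8.73 in CMP and 7.92, 7.55 and 7.13 in MPP3. It rose by 1.21 ± 0.20 (adjusted p = 0.000358, set-adjusted p = 0.0319). Klf1, the transcription factor that switches on red cell genes, was at 7.48, 7.30 and 7.40 against 6.73, 6.55 and 6.81, and rose by 0.70 ± 0.14 (adjusted p = 0.00225, set-adjusted p = 0.0318). For both genes CMP and MPP3 did not overlap. Their calls ended when any one of 5 arrays was left out, CMP 3, MPP4 3 and MPP4 5 for both, with CMP 2 and MPP4 1 for Icam4 and CMP 1 and MPP4 2 for Klf1, at adjusted p from 0.0515 to 0.104. In the values as deposited the change of Klf1 was 0.06 (adjusted p = 0.808).

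Of 18 measured erythroid regulators and receptors, 3 rose (Aqp1, Icam4, Klf1) and none fell, with a median change of 0.19. Gata1, a transcription factor of red cells and megakaryocytes, was at 8.32, 8.31 and 8.98 in CMP and 7.91, 7.99 and 7.89 in MPP3. Its change of 0.61 ± 0.17 was called in the quantile-normalized fit (adjusted p = 0.0231) and not in the set-adjusted fit (0.92 ± 0.30, adjusted p = 0.103). Tal1, which forms a complex with Gata1, went the other way, at −0.30 (adjusted p = 0.101) and −0.68 in the set-adjusted fit (adjusted p = 0.0174), but at 0.11 with arrays centred on their medians (adjusted p = 0.647). Epor, the erythropoietin receptor, differed by 0.35 (adjusted p = 0.0828), and by 0.41 with median centring (adjusted p = 0.0219).

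Of 18 measured red cell enzymes and membrane genes, Slc14a1 alone rose and none fell, and the median change was 0.03, the same as over all genes at this rounding. In the quantile-normalized fit 5 of them were higher and 2 lower. That fit called 7.19% of all genes higher and 4.21% lower. Car1, a carbonic anhydrase abundant in red cells, was at 11.34, 11.54 and 11.38 in CMP and at 10.56, 11.28 and 8.90 in MPP3. MPP3 2 nearly reached CMP while MPP3 3 lay far below, and the change of 1.17 ± 0.54 was not called (adjusted p = 0.156), while with arrays centred on their medians it was 1.70 (adjusted p = 0.0296). Car2, another carbonic anhydrase, went the other way, at 10.07, 10.24 and 10.05 in CMP and 10.83, 10.89 and 10.34 in MPP3. Its change of −0.57 ± 0.14 was called lower in the quantile-normalized fit alone (adjusted p = 0.0114, set-adjusted p = 0.321). Of 16 genes of heme synthesis and iron, none was called in both fits and 5 were higher in the quantile-normalized fit alone. Urod, an enzyme of heme synthesis, had the largest of these changes at 1.06 ± 0.21 (adjusted p = 0.00228), with a set-adjusted p of 0.0527. Alas2, another enzyme of heme synthesis, went the other way, at 6.71, 6.92 and 6.71 in CMP and 7.33, 7.16 and 7.27 in MPP3. Its change of −0.47 ± 0.16 was called in neither fit (adjusted p = 0.0526, set-adjusted p = 0.795). The globin genes were not analysed here, because their probes match several genes.

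Irf8 and Csf1r rose. Irf8, a transcription factor of monocytes and dendritic cells, was at 9.10, 8.76 and 9.10 in CMP and 7.55, 7.38 and 7.27 in MPP3. The lowest CMP value was over 1 log2 above the highest MPP3 value. Irf8 rose by 1.59 ± 0.20 (adjusted p = 1.59e-05), a 3.00-fold difference, and by 2.50 ± 0.21 in the set-adjusted fit (adjusted p = 4.08e-07). Csf1r, the receptor for the monocyte growth factor M-CSF, was at 7.84, 7.49 and 7.99 against 6.66, 6.70 and 6.68. It rose by 1.10 ± 0.13 (adjusted p = 6.66e-06, set-adjusted p = 0.000224). Both calls held whichever of the 10 arrays was left out.

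Of 18 granulocyte-monocyte regulators, 3 rose (Irf8, Csf1r, Zeb2) and none fell, at a median change of 0.06. Zeb2, a repressor needed in monocyte and dendritic cells, was at 9.60, 9.56 and 9.53 in CMP against 8.84, 8.81 and 8.93 in MPP3. It rose by 0.70 ± 0.15 (adjusted p = 0.00391, set-adjusted p = 0.0389). The call of Zeb2 ended without any one of CMP 1 to 3 and MPP4 1, 3, 4 and 5, at adjusted p from 0.0534 to 0.0856, and with arrays centred on their medians its change was 1.15. Cebpa, which directs cells to the granulocyte and monocyte path, differed by 0.61 ± 0.20 (adjusted p = 0.0514), and Spi1, the gene of PU.1, by 0.25 ± 0.19 (adjusted p = 0.422). Cebpa was called higher in both fits with arrays centred on their medians, at 1.04 (adjusted p = 0.0005) and at 1.185 in the set-adjusted fit (adjusted p = 0.0236), and Spi1 in the set-adjusted fit, at 0.96 (adjusted p = 0.0316). Gfi1, a transcriptional repressor that acts in neutrophil formation, was at −0.25 (adjusted p = 0.161). It was at 0.13 in the set-adjusted fit on median-centred values (adjusted p = 0.695).

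Of 18 measured monocyte and macrophage genes, 4 rose (F13a1, Ms4a6c, Mpeg1, Csf1r) and none fell, at a median change of 0.16. F13a1, the A subunit of coagulation factor XIII made by monocytes and megakaryocytes, was at 9.53, 8.92 and 9.51 in CMP and 7.63, 7.10 and 6.99 in MPP3. It rose by 2.07 ± 0.26 (adjusted p = 1.25e-05, set-adjusted p = 0.0079). Mpeg1, the pore-forming perforin-2 of phagocytes, was at 8.44, 8.61 and 8.38 against 7.10, 7.69 and 6.58, and rose by 1.35 ± 0.22 (adjusted p = 0.000469, set-adjusted p = 0.00125). The groups of both genes lay apart.

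Ms4a6c, a membrane protein of monocytes, was at 9.99, 9.89 and 10.14 in CMP and 8.39, 8.82 and 8.60 in MPP3. It rose by 1.41 ± 0.30 (adjusted p = 0.0039, set-adjusted p = 0.045), and the call ended without any one of the 10 arrays but MPP4 4, at adjusted p from 0.0511 to 0.147. Clec12a, an inhibitory lectin of monocytes, was called in the set-adjusted fit alone, at 3.35 (adjusted p = 6.7e-05) against 1.12 in the quantile-normalized fit (adjusted p = 0.0925) and 1.42 with arrays centred on their medians (adjusted p = 0.0191). The macrophage genes C1qa, C1qb, C1qc and Adgre1 were called in neither fit, with changes from −0.27 to 0.15.

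Most granule genes were not called. Mpo, the myeloperoxidase of primary granules, was at 12.74, 12.61 and 12.71 in CMP and 12.74, 12.29 and 12.40 in MPP3, with overlapping ranges. Its change of 0.21 ± 0.31 was not called (adjusted p = 0.704), nor was that of Elane, the neutrophil elastase (0.22 ± 0.32, adjusted p = 0.706). Mpo was called higher with arrays centred on their medians, at 0.825 (adjusted p = 0.0488). Of 21 measured genes of the primary granule list, Hp alone rose, and Hp does not encode a primary granule enzyme as Mpo and Elane do. In the quantile-normalized fit 5 of the 21 were higher and none lower, where 7.19% of all genes were higher. Relative to all genes the list median lay at 0.20 in that fit. It lay at 0.63 in the set-adjusted fit and at 0.63 with arrays centred on their medians. Hp, which encodes the hemoglobin-binding haptoglobin, was at 8.76, 8.88 and 8.98 against 8.70, 7.92 and 7.77 and rose by 0.74 ± 0.19 (adjusted p = 0.0137, set-adjusted p = 0.015). MPP3 1 lay just below the CMP values. The call of Hp ended without CMP 3 (0.0598), without MPP3 2 (0.064) and, in the quantile-normalized fit, without MPP3 3 (0.0813) or with the 6 arrays alone (0.0805). Ctsg, the granule protease cathepsin G, had a change of 1.29 ± 0.35 in the quantile-normalized fit (adjusted p = 0.0191) and a set-adjusted p of 0.0748.

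Of 17 genes of secondary granules and mature neutrophils, Cxcr2 alone rose and none fell, and the median change was −0.10. Cxcr2, the receptor through which neutrophils sense chemokines, was at 8.92, 8.84 and 9.43 in CMP and 6.05, 6.43 and 6.92 in MPP3. All CMP values were well above MPP3, of which MPP3 3 was the highest. Cxcr2 rose by 2.60 ± 0.29 (adjusted p = 3.77e-06), a 6.05-fold difference, and by 2.26 ± 0.51 in the set-adjusted fit (adjusted p = 0.02). Without MPP4 5 the set-adjusted p was 0.0741. S100a8 and Ngp, products of maturing neutrophils, were at −1.88 and −1.22 in the quantile-normalized fit (adjusted p = 0.026 and 0.0305) and were not called in the set-adjusted fit.

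Of 20 measured genes of eosinophils, basophils and mast cells, Hdc alone rose. Hdc, the enzyme that makes histamine, was at 8.81, 9.02 and 8.51 in CMP and 7.54, 7.48 and 6.33 in MPP3. The lowest MPP3 value was that of MPP3 3. Hdc rose by 1.66 ± 0.24 (adjusted p = 0.000109) and by 2.16 ± 0.27 in the set-adjusted fit (adjusted p = 0.000207), and the call held whichever of the 10 arrays was left out. Prg2, the eosinophil major basic protein, was at 6.51, 6.43 and 6.49 in CMP and 9.27, 9.26 and 8.54 in MPP3. Its change of −2.55 ± 0.44 was called in the quantile-normalized fit (adjusted p = 0.000717), while the set-adjusted change was −1.26 ± 0.77 (adjusted p = 0.417). Gata2 and Cpa3, markers of early basophil and mast cell progenitors, were called in neither fit, at 0.34 and 0.73, and Gata2 was called with arrays centred on their medians, at 0.75 (adjusted p = 0.0029).

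The other large rises were in genes of varied kinds. Anxa3, an annexin of myeloid cells, was at 9.31, 8.96 and 8.95 in CMP and 8.17, 7.63 and 6.94 in MPP3. It rose by 1.49 ± 0.26 (adjusted p = 0.000895, set-adjusted p = 0.0123). Zg16, a secretory granule lectin known from the gut and pancreas, was at 7.18, 6.94 and 7.54 against 5.43, 5.39 and 5.99 and rose by 1.62 ± 0.19 (adjusted p = 6.33e-06, set-adjusted p = 0.00854). CMP and MPP3 values of Anxa3 and Zg16 lay apart, which was a condition for picking them. Their calls held whichever of the 10 arrays was left out. Rnpep, an aminopeptidase, rose by 1.67 ± 0.19, Cnn2, the actin-binding calponin 2, by 1.45 ± 0.26, Ces2g, a carboxylesterase, by 1.55 ± 0.26 and Calml4, a calmodulin-like protein, by 2.59 ± 0.43. Their set-adjusted p-values were 0.0309 for Rnpep, 0.022 for Cnn2, 0.0386 for Ces2g and 0.0478 for Calml4. These calls were close to the threshold. They ended for Cnn2 without MPP4 5 (0.0568) and for Rnpep without CMP 2 or MPP4 2, 3 or 4 (0.0536 to 0.12). For Ces2g they ended without any one of 6 arrays, namely CMP 2 and 3 and MPP4 1, 3, 4 and 5 (0.0549 to 0.0896), and for Calml4 without any one of the 10 but MPP4 1 (0.0566 to 0.12).

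Among genes that fell, 2 mark stem cells. Hlf, a transcription factor of long-term stem cells, was at 9.52, 9.45 and 9.38 in CMP and 10.83, 10.73 and 10.74 in MPP3. Both groups were tight and lay over 1 log2 apart. Hlf fell by 1.32 ± 0.15 on the log2 scale (adjusted p = 3.46e-06), by 1.42 ± 0.20 in the set-adjusted fit (adjusted p = 0.000583), and was 1.58 lower in CMP than in MPP4 1 to 3 (adjusted p = 8.23e-05). Mllt3, a chromatin reader that sustains stem cells, was at 9.14, 9.45 and 9.25 against 10.07, 10.24 and 10.32. It fell by 0.93 ± 0.20 (adjusted p = 0.00447, set-adjusted p = 0.0172). Both calls held whichever of the 10 arrays was left out, but with arrays centred on their medians the change of Hlf was −0.72 (adjusted p = 0.028) and that of Mllt3 −0.36 (adjusted p = 0.274).

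Of 38 measured stem cell genes, Hlf and Mllt3 fell and none rose, at a median change of −0.29 with 26.3% of members above 0. Relative to all genes the median lay at −0.31, and at −0.11 with arrays centred on their medians. Mecom, a zinc finger regulator of stem cells, was at 7.63, 7.54 and 7.56 in CMP and 8.67, 8.71 and 7.82 in MPP3. All CMP values were below MPP3, of which MPP3 3 came closest to them. In the quantile-normalized fit 7 of the 38 were lower and 1 higher, where 4.21% of all genes were lower and 7.19% higher. Mecom, Hmga2, Erg and Gata3 were called lower in the quantile-normalized fit alone, at −0.83, −0.70, −0.63 and −1.11, with set-adjusted p from 0.118 to 0.246. Tek went the other way, at 8.03, 7.77 and 7.82 in CMP and 7.55, 7.27 and 6.76 in MPP3. Its change of 0.68 ± 0.21 was called higher in that fit alone (adjusted p = 0.0346, set-adjusted p = 0.338). With arrays centred on their medians Erg was at −0.05 (adjusted p = 0.855) and Hmga2 at −0.38 (adjusted p = 0.0667), and neither was called, while Mecom and Gata3 were called at −0.67 and −1.06. Meis1, Hoxa9 and Procr, which also mark early progenitors, were called in neither fit, at −0.39, −0.29 and −0.26. Meis1 was at 0.25 with median centring, and Hoxa9 at 0.01 in the set-adjusted fit on those values. None of the 37 measured Hox cluster genes was called in both fits.

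Of 32 measured genes of lymphoid priming, Blnk alone fell and none rose. The median change was −0.28 in the quantile-normalized fit, −0.00 in the set-adjusted fit and 0.07 with arrays centred on their medians. Blnk, an adaptor of the B cell receptor, was at 6.21, 6.35 and 6.42 in CMP and 7.88, 7.08 and 7.75 in MPP3. It fell by 1.24 ± 0.20 (adjusted p = 0.000288, set-adjusted p = 0.0478), and the call ended without any one of CMP 1 to 3 or MPP4 1 to 4 (0.0576 to 0.153). Il7r, the interleukin 7 receptor of lymphoid progenitors, was at 5.79, 5.29 and 5.59 in CMP and 8.07, 7.80 and 7.24 in MPP3. Its change was −2.15 ± 0.39 (adjusted p = 0.00115) but −0.50 ± 0.52 in the set-adjusted fit (adjusted p = 0.671). Dntt, the terminal transferase, and Satb1, a chromatin organiser of lymphoid genes, were called in neither fit, at 0.19 and 0.29. With median centring Dntt was called higher at 0.68 (adjusted p = 0.027) and Satb1 at 0.85 (adjusted p = 0.00319).

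Few genes of antigen presentation were called. Of 21 measured genes of this and of dendritic cells, Irf8 alone rose and none fell. Cd74, the invariant chain of class II molecules, was at 6.89, 6.88 and 6.81 in CMP and 8.91, 9.03 and 8.21 in MPP3. It was called in the quantile-normalized fit alone, at −1.86 ± 0.37 (adjusted p = 0.00208, set-adjusted p = 0.156). The class II genes H2-Aa, H2-Ab1 and H2-Eb1 were called in neither fit, at −0.16, 0.06 and −0.10, with H2-Aa at 0.01 and H2-Eb1 at 0.08 under median centring.

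Of 38 measured interferon response genes, Oas2 and Ifitm1 fell and none rose, at a median change of −0.25 with 23.7% of members above 0. Oas2, an enzyme that senses viral RNA, was at 7.18, 7.07 and 7.06 in CMP and 8.05, 7.91 and 8.47 in MPP3. Ifitm1, a membrane protein that blocks virus entry, was at 10.94, 10.86 and 10.60 against 11.47, 11.63 and 11.77. Neither gene overlapped between the groups. Oas2 fell by 1.04 ± 0.18 (adjusted p = 0.00061, set-adjusted p = 0.0444) and Ifitm1 by 0.82 ± 0.19 (adjusted p = 0.00727, set-adjusted p = 0.0389). The call of Oas2 ended without any one of the 10 arrays but MPP4 1 and MPP4 4 (0.0525 to 0.172), and that of Ifitm1 without CMP 2 or 3 or MPP4 1, 2, 3 or 5 (0.0534 to 0.153). With arrays centred on their medians the change of Ifitm1 was −0.19 (adjusted p = 0.623), and in the set-adjusted fit on such values Oas2 had an adjusted p of 0.0618. Iigp1 and Gbp4, which are GTPases induced by interferon gamma, were at −1.77 and −1.32 in the quantile-normalized fit alone (set-adjusted p = 0.149 and 0.0822). Ifitm3 was at 12.06 ± 0.11 in CMP and 12.13 ± 0.02 in MPP3, and with median centring it was 0.56 higher in CMP (adjusted p = 0.0579).

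The largest falls were in genes of antibody-secreting cells. Jchain, which encodes the chain that joins IgA and IgM units, was at 4.58, 4.70 and 4.62 in CMP and 11.31, 11.53 and 10.85 in MPP3. No other gene called in both fits differed as much. Jchain fell by 6.59 ± 0.78 (adjusted p = 5.79e-06), a 96.5-fold difference, and by 6.61 ± 1.51 in the set-adjusted fit (adjusted p = 0.0219). Without MPP4 5 the set-adjusted p was 0.0528. Igha, the constant region of IgA, was at 6.62, 6.30 and 6.27 against 10.61, 11.51 and 10.77, and fell by 4.57 ± 0.36 (adjusted p = 9.93e-09, set-adjusted p = 0.00409). Ighm, that of IgM, was at 7.49, 7.44 and 7.56 against 9.62, 9.61 and 9.27, and fell by 2.00 ± 0.17 (adjusted p = 3.57e-08, set-adjusted p = 0.00409). In each of these genes all 3 MPP3 arrays were high, MPP3 3 among them.

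Pou2af1, a B cell coactivator of immunoglobulin genes, was at 6.77, 6.64 and 6.44 in CMP and 9.46, 9.48 and 9.59 in MPP3. It fell by 2.89 ± 0.34 (adjusted p = 5.13e-06) and by 1.53 ± 0.37 in the set-adjusted fit (adjusted p = 0.0284), and the call ended without CMP 3 (0.0564) or MPP4 4 (0.0901). A high level of Pou2af1 was not particular to MPP3. Its means were 8.18 in ST-HSC, 8.70 in MPP2, 8.06 in GMP, 8.58 in PreGr and 8.92 in Gr, against 6.63 in LT-HSC. It also differed between sets within MPP4, at 7.78 and 8.25 in MPP4 4 and 5 against 6.59, 6.52 and 6.60 in MPP4 1 to 3. The kappa variable segments Igkv19-93 and Igkv9-120 fell by 4.64 and 2.18 (set-adjusted p = 0.00293 and 0.0478). Such segments have near-identical copies, so the assignment to a segment is uncertain, and the call of Igkv9-120 ended whichever of the 10 arrays was left out (0.0538 to 0.0886).

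Of 19 measured B and plasma cell markers, 4 fell (Jchain, Igha, Pou2af1, Ighm) and none rose, at a median change of −0.72. The mean level over these markers was 6.53 to 6.57 in the CMP arrays and 7.83 to 8.03 in the MPP3 arrays. Of the plasma cell regulators, Irf4 and Prdm1 were at −1.56 and −0.72 and Xbp1 at −0.49 (−0.03 with median centring and 0.23 in the set-adjusted fit on such values), and Mzb1, a chaperone of antibody assembly, was at −1.35, all called in the quantile-normalized fit alone. The B cell genes Pax5, Cd22, Cd79b and Ms4a1 were called in neither fit, at −0.26, −0.09, 0.03 and −0.52. Within their shared set, CMP and MPP4 1 to 3 differed by −0.29 in Jchain (adjusted p = 0.484), −0.18 in Ighm (adjusted p = 0.252) and 0.05 in Pou2af1 (adjusted p = 0.836), while MPP4 4 and 5 differed from MPP3 3 by −6.32 in Jchain. The part of plasma cell RNA in the other falls was not tested, and in such sorted samples more cells of a type and more RNA per cell cannot be told apart.

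**Figure D3:**
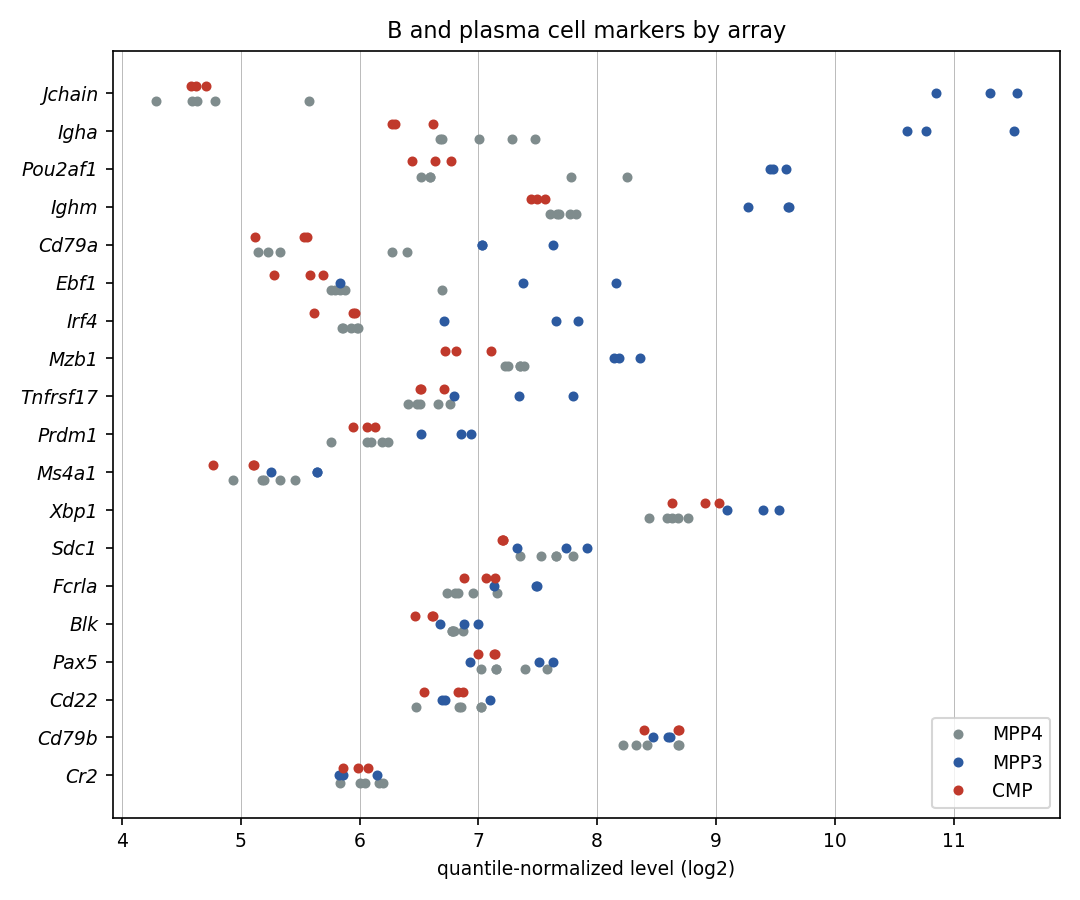
Levels (x axis, log2 after quantile normalization) of the 19 measured B and plasma cell markers in the 3 CMP (red), 3 MPP3 (blue) and 5 MPP4 (grey) arrays, ordered by the difference of MPP3 from CMP. Jchain, Igha, Pou2af1 and Ighm are higher in all MPP3 arrays than in all CMP and MPP4 arrays, while Cd22 and Cd79b overlap.

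Of 21 measured T and NK markers, Thy1 alone fell and none rose. Thy1, a surface protein of T cells and of some early progenitors, was at 7.78, 7.55 and 7.63 in CMP and 9.19, 8.96 and 9.63 in MPP3. The groups lay over 1 log2 apart. Thy1 fell by 1.61 ± 0.22 (adjusted p = 5.44e-05, set-adjusted p = 0.00215), and the call held whichever of the 10 arrays was left out. The T cell receptor genes Cd3d and Cd3e were called in neither fit, at −0.05 and −0.19, with Cd3e at 0.05 in the set-adjusted fit on median-centred values. The list's mean level was 6.76 to 6.88 in the CMP arrays and 7.07 to 7.31 in the MPP3 arrays. No stromal or endothelial marker was called in both fits (17 measured, median change −0.09).

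Several other genes fell. Cybb, the catalytic subunit of the phagocyte oxidase, was at 6.49, 6.34 and 6.17 in CMP and 8.08, 7.82 and 7.74 in MPP3. It fell by 1.55 ± 0.18 (adjusted p = 4.8e-06, set-adjusted p = 0.0262), and the call ended without CMP 3, MPP4 1 or MPP4 5 (0.0529 to 0.0656). Cngb1, a subunit of the rod photoreceptor channel, was at 8.08, 8.46 and 8.58 against 9.80, 9.95 and 9.49 and fell by 1.38 ± 0.16 (set-adjusted p = 0.0172), with 0.0617 without MPP4 4. Trp53inp1, a stress gene induced by p53, fell by 1.16 ± 0.14 (set-adjusted p = 0.02), with 0.0542 without MPP4 5. The groups of Cybb, Cngb1 and Trp53inp1 did not overlap, which was a condition for picking them. In the set-adjusted fit on median-centred values Cngb1 and Trp53inp1 had adjusted p of 0.0788 and 0.134, and with median centring the change of Trp53inp1 was −0.70.

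Prp2, a proline-rich protein gene, and Shank2, a scaffold gene of synapses, also fell, by 1.04 and 1.02. In both, MPP3 3 was far above the other MPP3 arrays, at 11.07 against 10.33 and 10.30 for Prp2 and at 10.86 against 9.39 and 9.75 for Shank2. Without MPP3 3 the quantile-normalized changes were −0.79 for Prp2 (adjusted p = 0.0154) and −0.59 for Shank2 (adjusted p = 0.18). Without CMP 1, 2 or 3 the adjusted p of Shank2 was 0.0536, 0.0817 and 0.0614. With the mean of its probes the change of Shank2 was −0.46 (adjusted p = 0.0694). Median centring gave −0.48 for Shank2 (adjusted p = 0.0518) and −0.45 for Prp2 (adjusted p = 0.0113).

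Genes of mitochondrial respiration, ribosome biogenesis and DNA replication lay above the median of all genes, with few calls in both fits. Relative to all genes the list medians were 0.31 for mitochondrial respiration, 0.28 for ribosome biogenesis and 0.23 for DNA replication, and 0.81, 0.75 and 0.64 with arrays centred on their medians. In the set-adjusted fit they were 0.24, 0.24 and 0.42. These lists are bright, with means per array of 9.38 to 10.51 against a median of 7.35 over all genes, and the comparison was not matched for level. The part of level in the larger values under median centring was not tested. Of 45 measured genes of mitochondrial respiration and the citric acid cycle, 2 rose (Ndufv1, Suclg1) and none fell, at a median change of 0.34 with 86.7% above 0. Ndufv1, a subunit of complex I, was at 9.91, 9.65 and 9.67 in CMP and 8.80, 8.93 and 8.91 in MPP3. It rose by 0.86 ± 0.14 (adjusted p = 0.000289, set-adjusted p = 0.0152), and the call held whichever of the 10 arrays was left out. Suclg1, a subunit of succinyl-CoA ligase, rose by 0.85 ± 0.20 (adjusted p = 0.0077, set-adjusted p = 0.0188). Its call ended without MPP4 5 (0.0571) and, in the quantile-normalized fit, without MPP3 3 (0.0542). With median centring the changes of Ndufv1 and Suclg1 were 1.31 and 1.28.

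Of 50 measured genes of ribosome biogenesis, none was called in both fits. In the quantile-normalized fit 12 were higher and none lower, where 7.19% of all genes were higher and 4.21% lower. The median change was 0.30 with 82% above 0. Polr1e, a subunit of RNA polymerase I, and Nop2, a ribosomal RNA methyltransferase, were at 1.05 and 0.81, with set-adjusted p of 0.0822 and 0.0683, and Nop2 was at 1.24 with median centring. Of 46 DNA replication genes, 8 were higher and none lower in that fit alone, among them Orc1, of the origin recognition complex, at 0.81 (adjusted p = 0.00104, set-adjusted p = 0.181). Of 31 genes of cholesterol and one-carbon synthesis, Shmt2 alone rose, at a median change of 0.38. Shmt2, the mitochondrial serine hydroxymethyltransferase, was at 10.42, 10.16 and 10.44 in CMP and 9.83, 9.78 and 9.67 in MPP3 and rose by 0.58 ± 0.19 (adjusted p = 0.0454, set-adjusted p = 0.0418). Its call ended without any one of 8 of the 10 arrays (all but MPP4 1 and MPP4 5, at 0.058 to 0.142) and without MPP3 3 (0.118), and its change with median centring was 1.13.

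Of 44 measured mitosis genes, Kif2c alone rose. The median change was 0.11, with 54.5% of members above 0, against 0.03 and 53.8% for all genes. In the set-adjusted fit the median was 0.28. Of 36 measured G1 cyclins and inhibitors, none was called in both fits. Their median change was 0.11, and 0.00 in the set-adjusted fit. Kif2c, a kinesin that depolymerises microtubules, rose by 0.87 ± 0.22 (adjusted p = 0.0133, set-adjusted p = 0.0337). The call ended without CMP 2 or 3 or MPP4 3, 4 or 5 (0.0576 to 0.0736) and, in the quantile-normalized fit, without MPP3 3 (0.0857). Mki67 and Top2a, which mark dividing cells, were called in neither fit, with Mki67 at 10.45 ± 0.11 in CMP and 10.78 ± 0.16 in MPP3 and Top2a at 11.46 ± 0.06 and 11.42 ± 0.17. Myc was at 11.66 ± 0.01 and 11.49 ± 0.09. With arrays centred on their medians Mki67 was at 0.30 (adjusted p = 0.34), while Top2a was called higher at 0.68 (adjusted p = 0.0335) and Myc at 0.80 (adjusted p = 0.0064).

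**Figure D4:**
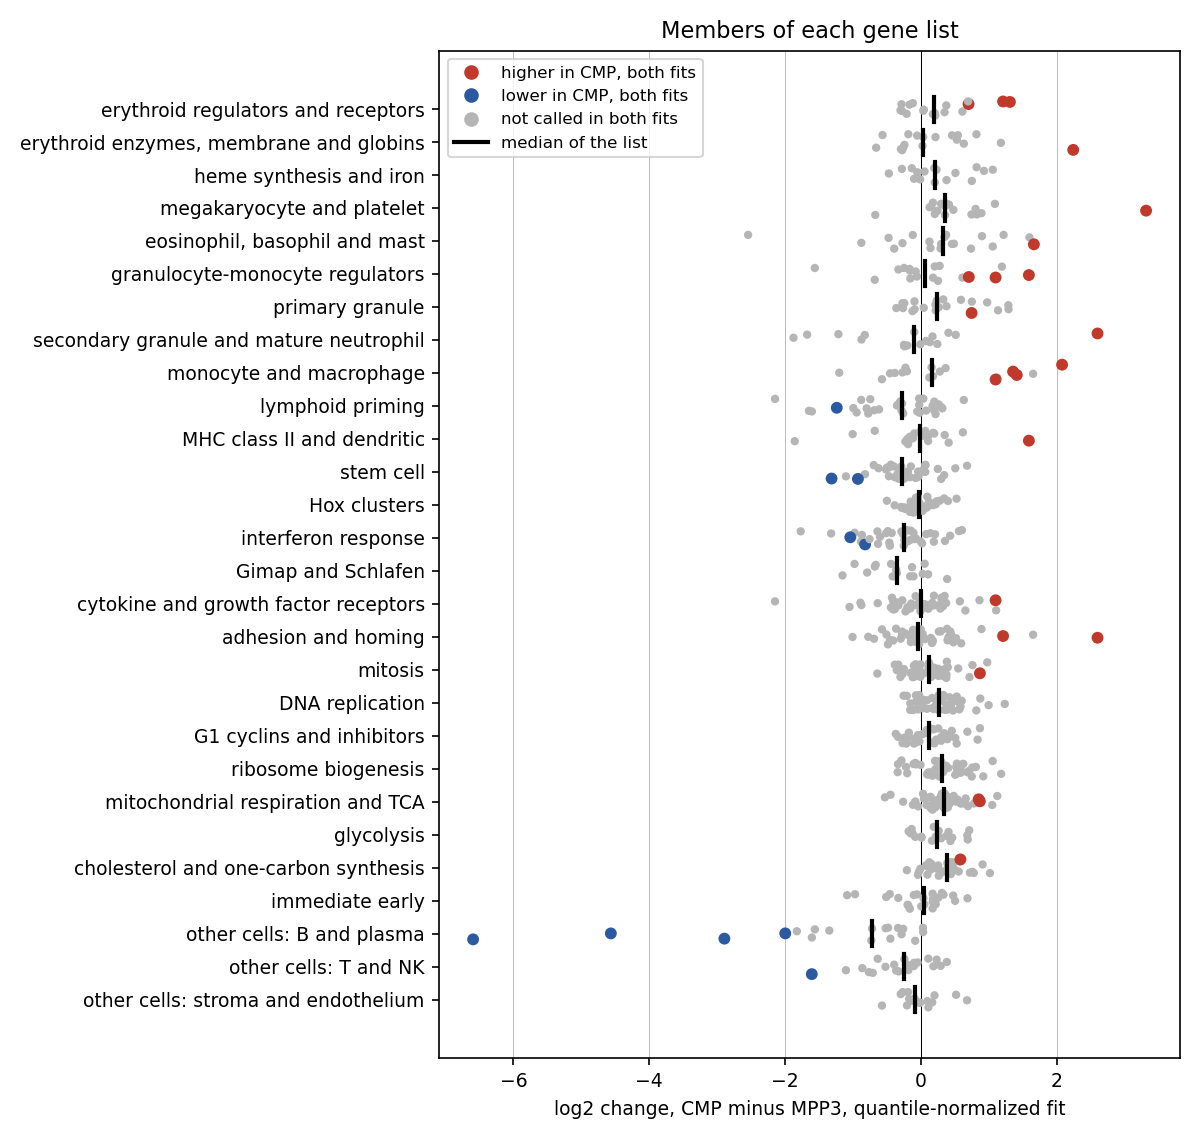
Change of each measured member of 28 gene lists from MPP3 to CMP (x axis, log2, quantile-normalized fit). Red and blue points are genes called higher or lower in CMP in both fits, grey points all others, and black bars the list medians. Most bars lie within 0.4 of 0, and the bar of the B and plasma list lies farthest from it at −0.72.

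Over all 9 populations the genes with the largest changes had different orders of level. Pf4 was highest in MPP2 (11.27 ± 0.06, mean ± SD) and CMP (10.97 ± 0.08), then in ST-HSC (9.66 ± 0.46) and LT-HSC (9.40 ± 0.44), which overlap. MPP3 had 7.66 ± 0.99, and MPP4, GMP, PreGr and Gr had 6.11 to 6.97. Cavin2 was high in CMP (8.36 ± 0.24) and LT-HSC (8.04 ± 0.61), middling in MPP2 (7.28 ± 0.84), and 5.92 to 6.26 in the other 6 populations. Cxcr2 was at 5.61 to 6.47 in the stem cell and multipotent populations, 9.06 ± 0.32 in CMP, 8.50 ± 0.29 in GMP and 12.96 ± 0.10 in granulocytes.

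Irf8 and Csf1r were lower in CMP than in GMP, at 8.99 ± 0.20 against 9.37 ± 0.32 and at 7.78 ± 0.25 against 8.73 ± 0.14, and the ranges of Irf8 meet. Hlf was at 11.64 ± 0.09 in ST-HSC and 11.43 ± 0.30 in LT-HSC, 10.49 to 10.98 in MPP2, MPP3 and MPP4, 9.45 ± 0.07 in CMP and 8.02 ± 0.20 in GMP. Jchain was highest in MPP3 (11.23 ± 0.35), followed by PreGr (9.80 ± 0.73) and Gr (8.78 ± 1.51), whose ranges overlap. In MPP2 it ranged from 5.70 to 11.19 over 3 arrays, and the remaining populations had means of 4.64 to 5.05. These levels span several array sets and are given as a description.

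**Figure D5:**
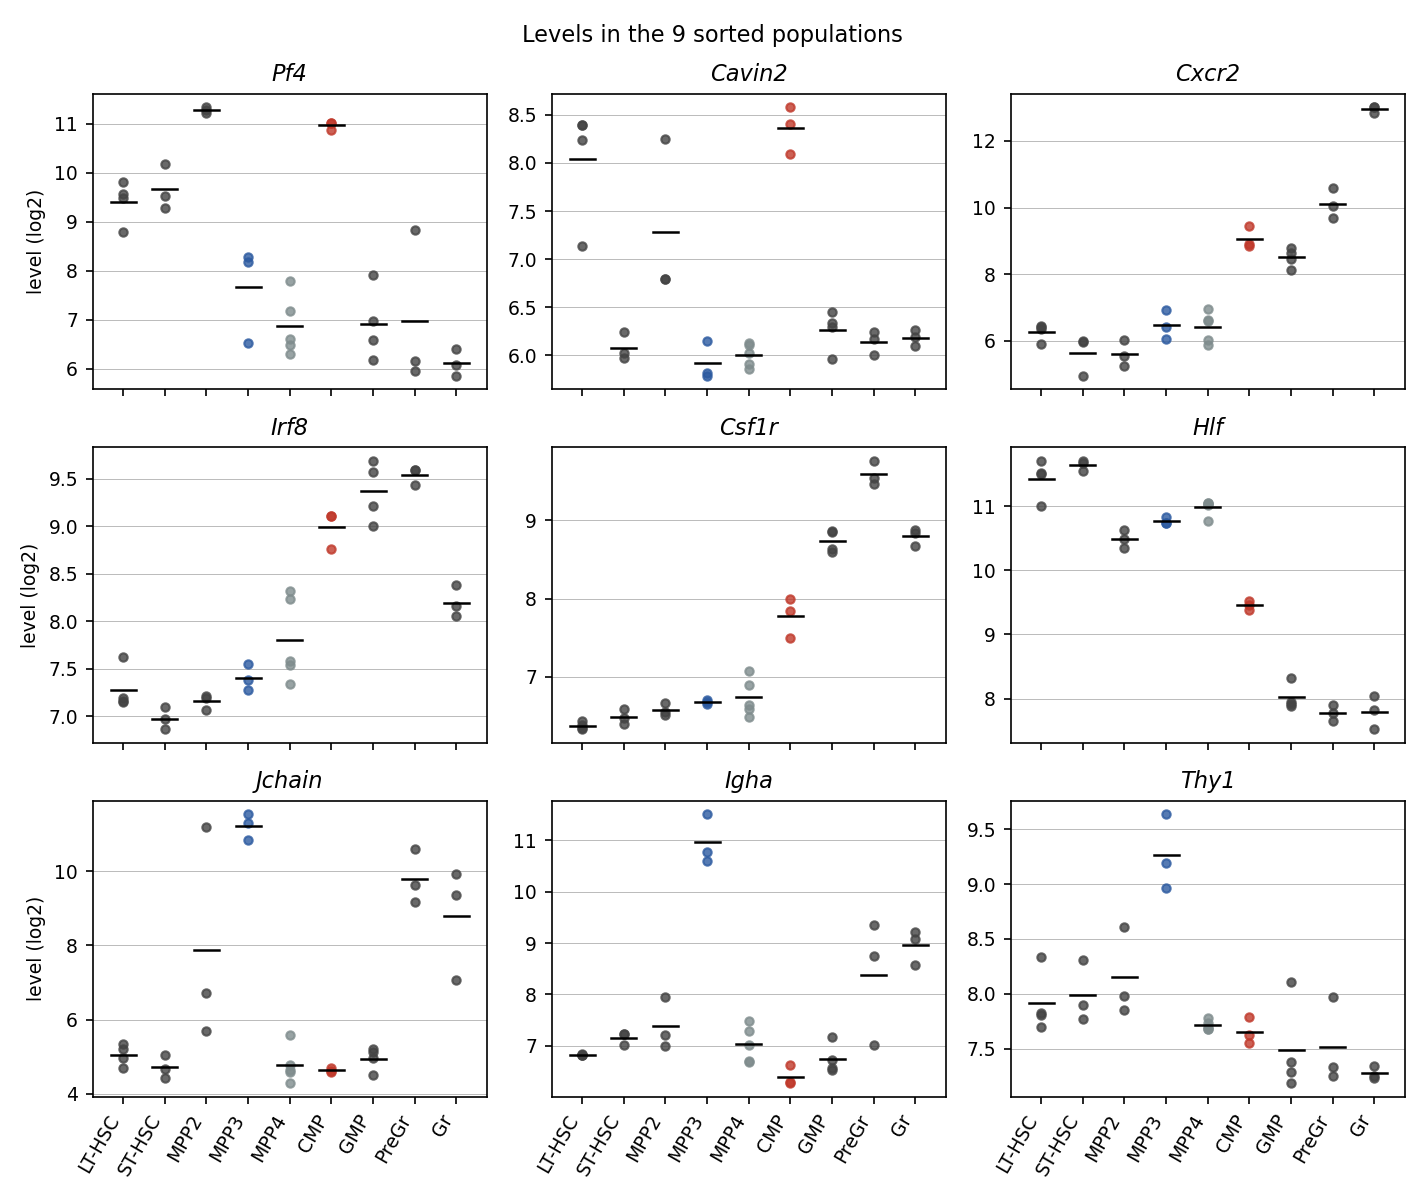
Levels (y axis, log2 after quantile normalization) of 9 genes in the 31 arrays by population. Points are arrays, bars are means, red is CMP, blue MPP3 and grey MPP4. Pf4 and Cavin2 are high in CMP and low in MPP3 and MPP4, while Jchain, Igha and Thy1 are highest in MPP3.

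A few large differences between the 6 arrays did not appear within a set. Gdpd3, a lysophospholipase D gene chosen after its values were seen, was at 9.51, 9.79 and 9.39 in CMP and 5.67, 5.57 and 5.51 in MPP3. Its change of 3.98 (adjusted p = 0.0234) is larger than that of Pf4. MPP4 1 to 3, in the set of CMP, differed from CMP in Gdpd3 by only −0.10, and the set-adjusted change was 0.26 (adjusted p = 0.928).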

How the data were processed

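RNA of 31 sorted samples was measured on Affymetrix mouse whole-transcript gene arrays. The deposited values are on a log2 scale and came from RMA, per the submitters' processing notes, which give no version. The number of arrays limits the precision. The table has 35557 probes. The platform annotation names a single gene for 21789, several for 1621 and none for 12147. A RefSeq gene was found for 21698 of those with a single gene. Where a gene had several probes (999 genes) the brightest was used, and 19938 genes were tested.

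Arrays were quantile-normalized over all probes. limma 3.58.1 in R 4.3.3 fitted 1 mean per population to all 31 arrays (22 residual degrees of freedom), and the set-adjusted fit added the array set as a block (18). Two-sided p-values were adjusted by Benjamini-Hochberg over all genes, with a threshold of 0.05. Arrays were put in 1 set where 2 or more values are identical between them, and the block takes the shift of a gene between sets to be the same in every population. Correlations of residuals of same-numbered CMP and MPP3 arrays were -0.143, 0.00941 and -0.142, and those of differently numbered arrays -0.146 to 0.185. Residuals of 3 arrays sum to 0 and MPP3 3 lies in another set than MPP3 1 and 2. These values therefore cannot show whether the numbers pair samples, and no pairing was used in the main fits.

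Named genes are, first, the 15 largest rises and the 15 largest falls called in both fits with groups that do not overlap. Predicted, unnamed, microRNA and olfactory receptor genes were passed over there. Added to them are up to 6 members of each list called in both fits. Anchor genes were added too, and those with nothing to show were passed over. Some members called in the quantile-normalized fit alone are named as examples. The members and lists were chosen with earlier results of these data known. Alternatives were the values as deposited, median centring, the 6 arrays alone, a filter on dim genes, other probe rules, other variance models, array weights, replicate blocks and leaving out arrays. Figures were drawn with matplotlib 3.10.9.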

Additional observations from a re-analysis of the deposited data

Results flagged for a closer look

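Among 14 genes with levels given for all populations, 42 groups of 4 or 5 arrays were tested for a single array far from the rest, and 6 stood out, where chance gives about 1 in 20. Calml4 was at 7.36 in LT-HSC 4 against 8.87 to 9.11 in the other LT-HSC arrays, and at 6.91 in GMP 4 against 8.62 to 8.67. Cavin2 was at 7.14 in LT-HSC 4 against 8.24 to 8.39. Irf8 was at 7.63 in LT-HSC 4 against 7.15 to 7.19. Hlf was at 10.76 in MPP4 5 against 11.02 to 11.05, and at 8.32 in GMP 4 against 7.88 to 7.95. All 6 values come from arrays of the set that also holds MPP3 3, and the part of the set in these values was not tested.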

How the results depend on the processing

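The counts of calls depend on the scale and on single arrays. In the values as deposited 196 genes were higher, 9622 lower and 1056 called in both fits, with 1621 in the set-adjusted fit. With arrays centred on their medians 4225 were higher, 1189 called in both fits and 1529 in the set-adjusted fit, which on these values called 188 lower. The set-adjusted fit by itself called 247 higher and 303 lower, the 6 arrays alone 507 lower, and all probes 1506 lower, 409 in both fits and 972 set-adjusted. Array weights gave 3947 higher, 2126 lower and 387 in both fits. A replicate block, which pairs samples by their number, gave 1367 lower over all arrays, and 662 higher and 190 lower over the 6 arrays. Leaving out 1 array gave 726 to 1320 higher, 354 to 719 lower, 117 to 263 in both fits and 330 to 490 set-adjusted; without MPP3 3 the set-adjusted fit could not be fitted. Of the 254 genes called in both fits, 128 remained so in the values as deposited and 172 with median centring. In the values as deposited Klf1, Csf1r, Zeb2, Hp, Suclg1, Shmt2 and Kif2c were no longer called higher. The sign changed for Kit and Flt3 with median centring (0.20 and 0.52) and, in the set-adjusted fit on those values, for Kit, Flt3 and Xbp1 (0.069, 1.22 and 0.23). Without a call on either side, the sign also changed with median centring for Tal1 (0.11), Meis1 (0.25), Mki67 (0.30), Ifitm3 (0.56), H2-Aa (0.01) and H2-Eb1 (0.08), and in the set-adjusted fit on those values for Mki67, Ifitm3, Fcgr3, Gfi1, Hoxa9, Cd3e and Xist. With median centring 11 of the 111 named genes tested were newly called and 6 no longer called. None of these 111 genes changed sign in a call under the other alternatives. Car2, Alas2 and Tek were not among the 111. The cause was not tested.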
